A study of Drosophila melanogaster with 18 samples.

Results

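The genes described here are 10 genes of lipid transport, lipid metabolism and storage that are best known from the insect fat body. They were chosen by name, with earlier results of these data known. All 10 were found by their annotation IDs among the 13439 genes with a value. They are apolpp, Apoltp, Lsd-1, FASN1, Desat1, CG5966, Lsp2, Fbp1, Cyp4g1 and tobi. RNA was sequenced from brains of Drosophila melanogaster, Oregon wild-type, with 100 brains pooled per sample, to ask how expression differs between the sexes and with age. Virgin females and males were kept apart from shortly after eclosion, on the same cornmeal food and light cycle, until 3, 7 or 14 days of age. Values were used for 16 libraries, 3 from 3-day females, 2 from 7-day females (replicates 1 and 2), 2 from 14-day females (replicates 2 and 3) and 3 from males of each age. The labels name 18 samples, and the other 2 were taken out by the authors as outliers and were not analysed here.

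The fat body is the insect counterpart of liver and adipose tissue. It packs fat into droplets coated by perilipins, makes fatty acids from sugar, and secretes lipoproteins and storage proteins into the hemolymph, which bathes the brain outside its barrier of surface glia. Lipids reach the brain on lipophorin, and glia also make and store lipids of their own, so part of these genes is active in the head in more than a single tissue. Brain dissections may also carry pieces of the fat body of the head, and in a pool of whole brains fewer cells of a type and less RNA per cell cannot be told apart.

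Values are normalized reads, that is reads per gene divided by a size factor for each library. Whole reads recovered from them came to 2924715 to 8664494 per library. A log2 fold change (LFC) was taken on log2(normalized reads + 1), which understates the change of scarce genes. Groups are written F3 to F14 for females and M3 to M14 for males of 3, 7 and 14 days, so that F3vM3 stands for 3-day females over 3-day males, F14v3 for 14-day over 3-day females, and so on. A gene was called at an adjusted p below 0.1 in limma, with Benjamini-Hochberg adjustment over the 12448 genes whose mean reached 5 normalized reads, and all 10 genes were among them. Per the study's methods the pools of a group were biological replicates, and p-values measure the spread between them. Where a library of F7 or F14 is left out, the single library kept in that group is assumed to vary like the other groups.

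All 8 neuronal markers and all 8 glial markers were above 0 in every library. The summed neuronal markers spanned 34360 to 120421 normalized reads over female libraries and 16494 to 76844 over male libraries. Summed glial markers were 8496 to 25228 in F3 and 8543 to 9642 in M3. Of the 8 glial markers, 1 (Eaat1) was called higher in F3vM3, beside 11.4% of all genes, and none over the ages. The part of glia in the sex differences was not tested. Of 8 fat body markers outside the 10 genes, 6 (Obp99a, TotA, Yp1, Yp2, Yp3 and fit) were higher and 1 (Obp99b) lower in females over the ages. Summed, they came to 15826 to 147222 normalized reads in female libraries and 379 to 1028 in male libraries, mostly from the yolk proteins. The yolk proteins themselves differed by sex, so this sum cannot compare the amount of fat body between females and males. No fat body marker was at 0 in a library except fit, in a single 7-day male library. Their part in the differences described here was not tested. F7 replicate 2 and M14 replicate 1 had the most reads on scarce genes of their groups, with a median over 175 chemoreceptor genes of 23.1 and 56.9 normalized reads. The range in the remaining libraries was 1.12 to 26.3, and M14 replicate 2, at 26.3, was above F7 replicate 2.

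Per kb of exon, Desat1, apolpp and FASN1 led the 10 genes in all groups except 14-day females, where Lsp2 had the highest mean. Over all libraries, Desat1 averaged 709.3 ± 331.3 normalized reads per kb (SD, n = 16), apolpp 371.3 ± 285.2, FASN1 292.1 ± 110.9 and Lsp2 243.7 ± 472.9. These SDs span both sexes and all ages, and the order is better read within libraries. Desat1 was above apolpp and above FASN1 per kb in 16 of 16 libraries, apolpp above FASN1 in 6, and FASN1 above Lsp2 in 12. Cyp4g1 at 76.7 ± 63.8, Lsd-1 at 61.2 ± 29.8, Apoltp at 33.9 ± 15.8 and tobi at 16.1 ± 21.4 normalized reads per kb followed. Cyp4g1 was above Lsd-1 in 8 libraries, Lsd-1 above Apoltp in 15 and Apoltp above tobi in 15, so that the first of these pairs had no steady order. CG5966 at 7.71 ± 8.74 and Fbp1 at 4.04 ± 6.47 normalized reads per kb were the scarcest. Among the genes tested that had a length, Desat1 lay at percentile 96.1, apolpp at percentile 91.5 and Fbp1 at percentile 1.20. Genes too scarce to be tested were not ranked.

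**Figure D1:**
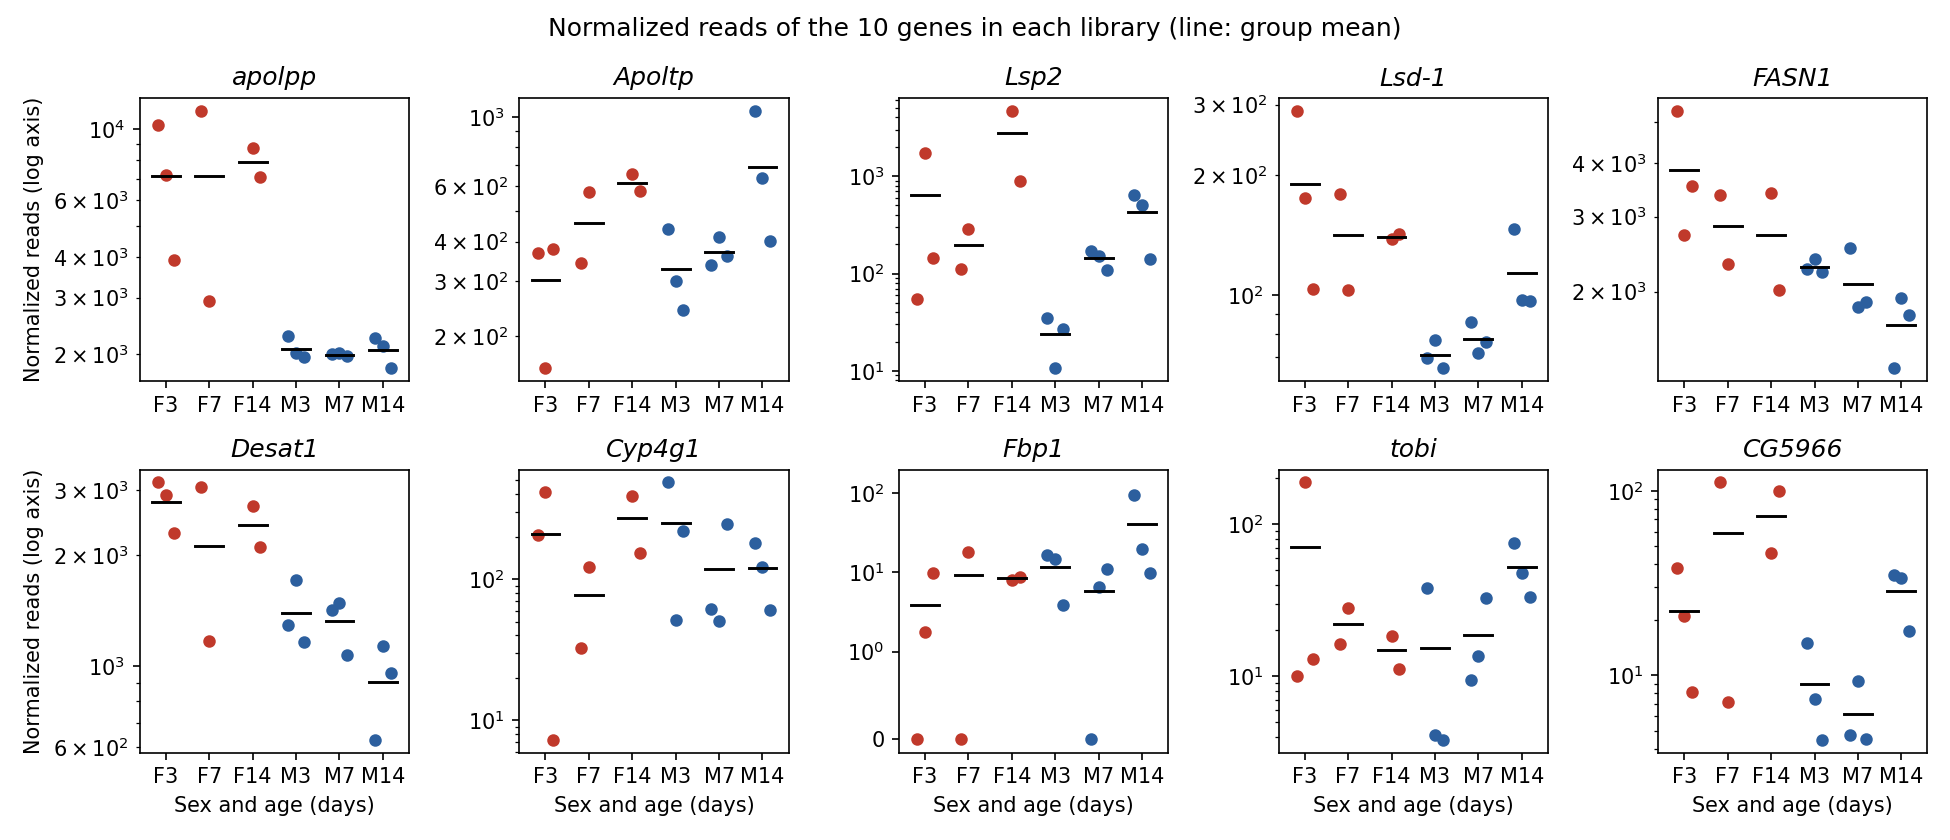
Normalized reads (y axis, log scale, linear below 1 for Fbp1) of each gene in females (red) and males (blue) of 3, 7 and 14 days (F3 to M14, x axis), with a point per library and a line at the group mean. All 7 female points of apolpp, from 2919 to 11361, lie above all 9 male points, from 1814 to 2286.

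The lipid carrier gene apolpp encodes apolipophorin, the structural protein of lipophorin, which carries most of the lipid in the hemolymph. It lies on chromosome 4 (4:1060969-1077273, plus strand, release 6). Females had 10249, 7208 and 3916 normalized reads at 3 days, 11361 and 2919 at 7 days, and 8727 and 7088 at 14 days. Males had 2286, 2014 and 1957 normalized reads at 3 days, 1999, 2015 and 1981 at 7 days, and 2254, 2118 and 1814 at 14 days. Every female library lay above every male library, which held for 0.281% of all genes tested and for none of the other 9 genes. The same was true of apolpp within each of the 3 ages, as for 0.787% of genes.

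The apolpp level was far more even among males than among females. The coefficient of variation was 42.3% over the 7 female libraries and 7.26% over the 9 male libraries. The lowest female value came from F7 replicate 2, whose fat body markers outside these genes summed to 23465 normalized reads, against 87478 in replicate 1. Within 3-day females, replicate 3 was lowest for apolpp and also for these markers (15826, against 41322 and 49280 in replicates 1 and 2). Of the other 3-day females, replicate 2 had the higher marker sum but the lower apolpp (7208, against 10249). Both F14 libraries had higher marker sums (147222 and 108659) than F7 replicate 1 but lower apolpp (8727 and 7088, against 11361). The part of the fat body markers in the apolpp level was not tested.

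Averaged over the within-age differences (FvM over ages), apolpp was 3.27-fold higher in females (95% CI 2.27 to 4.72, LFC 1.71, SE 0.25, adjusted p = 0.00079). The call held when any of the 16 libraries was left out and under the other 12 alternatives, with adjusted p from 7.2e-12 to 0.0066. In F3vM3 the LFC was 1.67 (SE 0.40, adjusted p = 0.025), a call that was lost without F3 replicate 1 (LFC 1.35, adjusted p = 0.14). In F7vM7 it was 1.53 (95% CI 0.58 to 2.48, adjusted p = 0.48), and it was 2.51 without F7 replicate 2 (adjusted p = 0.029), where replicate 1, the higher of its group, stands alone. In F14vM14 it was 1.94 (95% CI 0.99 to 2.89, adjusted p = 0.12). On the plus strand apolpp shares 96 exonic bases with Zyx on the minus strand, and the library kit does not mark strand, so reads from these bases cannot be told apart. They are 0.816% of the exonic length of apolpp, and the LFC of Zyx in FvM over ages was 0.20 (adjusted p = 0.64).

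Apoltp encodes the apolipoprotein of the lipid transfer particle, which loads lipid onto lipophorin (2L:9634179-9656026, plus strand). Females had 367.8, 157.8 and 380.1 normalized reads at 3 days, 341.9 and 574.2 at 7 days, and 655.8 and 578.0 at 14 days. Males had 439.3, 299.9 and 241.4 at 3 days, 337.9, 413.3 and 361.1 at 7 days, and 1045, 636.9 and 400.7 at 14 days. The sexes overlapped at every age, and the highest value of all came from M14 replicate 1. In FvM over ages the LFC was 0.01 (95% CI −0.46 to 0.48, adjusted p = 0.99), an interval that holds neither the LFC of apolpp nor its lower bound of 1.18.

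The ratio of apolpp to Apoltp, chosen after the values were seen and given without a test, was 27.9, 45.7 and 10.3 in F3, 33.2 and 5.08 in F7, and 13.3 and 12.3 in F14. In males it was 5.20, 6.72 and 8.11 at 3 days, 5.92, 4.87 and 5.49 at 7 days, and 2.16, 3.33 and 4.53 at 14 days. All female libraries but F7 replicate 2 had a higher ratio than every male library.

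**Figure D2:**
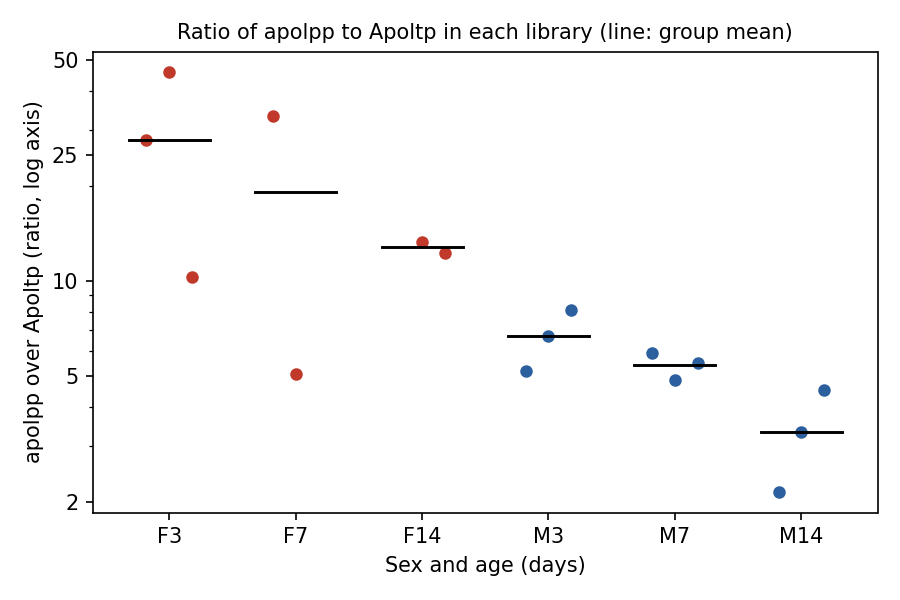
Ratio of normalized reads of apolpp to Apoltp (y axis, log scale) in each library of females (red) and males (blue) of 3, 7 and 14 days (x axis), with a line at the group mean. Female points span 5.08 to 45.7 and male points 2.16 to 8.11, with a single female point, at 7 days, inside the male range.

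Lsd-1 encodes perilipin 1, which coats lipid droplets and governs access of lipases to the stored fat (3R:23763857-23766662, plus strand). Females had 289.3, 175.4 and 103.7 normalized reads at 3 days, 179.5 and 102.9 at 7 days, and 138.1 and 142.3 at 14 days. Males had 69.9, 77.2 and 65.8 at 3 days, 85.9, 71.9 and 76.3 at 7 days, and 146.6, 97.6 and 97.1 at 14 days. The sexes were apart at 3 and 7 days and overlapped at 14 days, where M14 replicate 1 exceeded both female libraries.

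Lsd-1 was 2.44-fold higher in females at 3 days (95% CI 1.47 to 4.05, LFC 1.29, SE 0.35, adjusted p = 0.038). This call was lost without F3 replicate 1 (LFC 0.92, adjusted p = 0.23), without M3 replicate 1 (adjusted p = 0.14) and under quantile normalization (adjusted p = 0.12). Over the ages the LFC was 0.80 (SE 0.22, adjusted p = 0.088), and the call was kept in 4 of the 16 fits with a library left out, namely without F3 replicate 3, F7 replicate 2, M7 replicate 1 or M14 replicate 1. In the other fits the LFC was 0.67 to 0.82, with adjusted p from 0.11 to 0.43, and rescaling on abundant genes gave an adjusted p of 0.12. CG10214, on the minus strand, shares 144 exonic bases with Lsd-1, or 7.35% of its exonic length. The LFC of CG10214 in F3vM3 was 1.01 (adjusted p = 0.087), so reads of the shared bases cannot be told apart between genes that were both higher in 3-day females.

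FASN1 encodes the fatty acid synthase that builds long-chain fatty acids (2L:3056598-3068177, plus strand). Females had 5316, 2720 and 3546 normalized reads at 3 days, 3378 and 2324 at 7 days, and 3413 and 2021 at 14 days. Males had 2261, 2389 and 2219 at 3 days, 2527, 1842 and 1893 at 7 days, and 1323, 1928 and 1761 at 14 days. Females lay above males at 3 and 14 days without overlap, and the groups overlapped at 7 days. FASN1 was not called between the sexes, with an LFC of 0.70 in F3vM3 (95% CI 0.09 to 1.31, adjusted p = 0.16) and of 0.60 over the ages (95% CI 0.22 to 0.98, adjusted p = 0.12). DESeq2 on the recovered reads called both (adjusted p = 0.062 and 0.013), whereas edgeR called neither (adjusted p = 0.20 and 0.11).

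Desat1 encodes a fatty acid desaturase that places a double bond in newly made fatty acids (3R:12439600-12447616, plus strand). Females had 3144, 2915 and 2291 normalized reads at 3 days, 3060 and 1166 at 7 days, and 2722 and 2095 at 14 days. Males had 1290, 1712 and 1162 at 3 days, 1416, 1479 and 1068 at 7 days, and 629.8, 1131 and 955.3 at 14 days. All female libraries were above all male libraries at 3 and 14 days, and F7 replicate 2 fell inside the male range. Desat1 was 1.99-fold higher in females over the ages (95% CI 1.49 to 2.66, LFC 0.99, SE 0.20, adjusted p = 0.013). This call held with each library left out in turn and under all 12 other alternatives, with adjusted p up to 0.074.

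The sex difference in Desat1 was called on its own at 3 days (LFC 1.01, SE 0.32, adjusted p = 0.067). That call was lost without replicate 1 (LFC 0.92, adjusted p = 0.24) or replicate 2 (LFC 0.97, adjusted p = 0.15) of the 3-day females, without replicate 1 (adjusted p = 0.23) or replicate 3 (LFC 0.89, adjusted p = 0.18) of the 3-day males, in edgeR (adjusted p = 0.12) and under quantile normalization (adjusted p = 0.13). In F14vM14 the LFC was 1.44 (95% CI 0.69 to 2.18, adjusted p = 0.17).

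CG5966 is annotated by similarity as a lipase of triglycerides (X:5988791-5992640, plus strand). Females had 38.1, 21.0 and 8.11 normalized reads at 3 days, 110.9 and 7.18 at 7 days, and 46.0 and 99.9 at 14 days. Males had 15.0, 7.39 and 4.47 at 3 days, 4.72, 9.35 and 4.49 at 7 days, and 35.1, 33.8 and 17.3 at 14 days. Females and males overlapped at 3 and 7 days and were apart at 14 days. Over the ages the LFC was 1.52 (95% CI 0.41 to 2.62, adjusted p = 0.17) in limma, while edgeR (adjusted p = 0.054) and DESeq2 (adjusted p = 0.0082) called it.

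Lsp2 encodes a hexamerin, a storage protein that larval fat body secretes into the hemolymph as a store of amino acids (3L:12129393-12131869, plus strand). Females had 54.9, 1710.0 and 145.1 normalized reads at 3 days, 110.0 and 283.9 at 7 days, and 4671 and 892.6 at 14 days. Males had 34.9, 10.7 and 26.8 at 3 days, 171.8, 152.4 and 107.7 at 7 days, and 645.6, 501.8 and 140.7 at 14 days. Lsp2 spanned 437-fold over all libraries and 31.1-fold within 3-day females alone. The sexes were apart at 3 and 14 days and overlapped at 7 days.

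In F3vM3, Lsp2 was 10.6-fold higher (95% CI 2.82 to 40.0, LFC 3.41, SE 0.91, adjusted p = 0.036). F3 replicate 2 carried much of this value, and without it the LFC was 1.99 (adjusted p = 0.13). Without F3 replicate 1, the lowest of the group, it was 4.46 (adjusted p = 0.034). The call was also lost without replicate 1 (LFC 3.74, adjusted p = 0.10) or replicate 2 (LFC 2.93, adjusted p = 0.12) of the 3-day males. Over the ages the LFC was 2.08 (SE 0.57, adjusted p = 0.090). That call was kept in 7 of 16 fits with a library left out, those without any 1 of the 3-day females, F7 replicate 2, F14 replicate 3, M7 replicate 1 or M14 replicate 1. In the others the LFC was 1.68 to 2.31 and adjusted p 0.11 to 0.30, and it was lost as well with a replicate block (LFC 1.95, adjusted p = 0.11) and after rescaling on abundant genes (adjusted p = 0.11).

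Fbp1 encodes a receptor through which larval fat body takes storage proteins back up (3L:14094589-14098053, minus strand). Females had 0, 1.75 and 9.73 normalized reads at 3 days, 0 and 18.3 at 7 days, and 8.05 and 8.74 at 14 days. Males had 16.6, 14.8 and 3.83 at 3 days, 0, 6.47 and 11.2 at 7 days, and 94.5, 20.02 and 9.71 at 14 days. The gene had at most 78 reads in a library and none in 3 libraries, and its highest value came from M14 replicate 1, the library with the highest levels of scarce genes, whose part in the value was not tested. In FvM over ages the LFC was −1.15 (95% CI −2.75 to 0.46, adjusted p = 0.43).

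Cyp4g1 encodes the cytochrome P450 of oenocytes that completes the synthesis of cuticular hydrocarbons (X:467057-469335, minus strand). Females had 205.2, 412.2 and 7.29 normalized reads at 3 days, 32.5 and 122.8 at 7 days, and 390.0 and 152.3 at 14 days. Males had 484.2, 51.8 and 219.7 at 3 days, 61.3, 50.3 and 245.2 at 7 days, and 179.3, 121.4 and 60.3 at 14 days. Replicates spread as widely as any difference between groups, by 56.5-fold within 3-day females. Over the ages the LFC was −0.12 (95% CI −1.55 to 1.30, adjusted p = 0.94). The summed markers of oenocytes outside these genes were 583 to 1044 in female libraries and 684 to 1590 in male libraries. Most of the sum came from Cpr and bond, at means of 386.4 and 287.3 normalized reads.

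The gene tobi encodes a glycosidase of the fat body that answers to insulin from the brain and to dietary protein and sugar (3R:25344761-25346921, minus strand). Females had 10.1, 187.7 and 13.0 normalized reads at 3 days, 16.2 and 27.9 at 7 days, and 18.4 and 11.2 at 14 days. Males had 38.3, 4.11 and 3.83 at 3 days, 9.44, 13.7 and 32.9 at 7 days, and 75.1, 47.5 and 33.3 at 14 days. F3 replicate 2, which also had the highest Lsp2 value of its group, stood far above the other 3-day females. At 14 days both female libraries lay below all male libraries, with an LFC of −1.70 (95% CI −3.98 to 0.57, adjusted p = 0.71), and over the ages the LFC was 0.10 (95% CI −1.17 to 1.37, adjusted p = 0.94). The gene shares 78 exonic bases, 3.71% of its exonic length, with rha on the opposite strand.

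**Figure D3:**
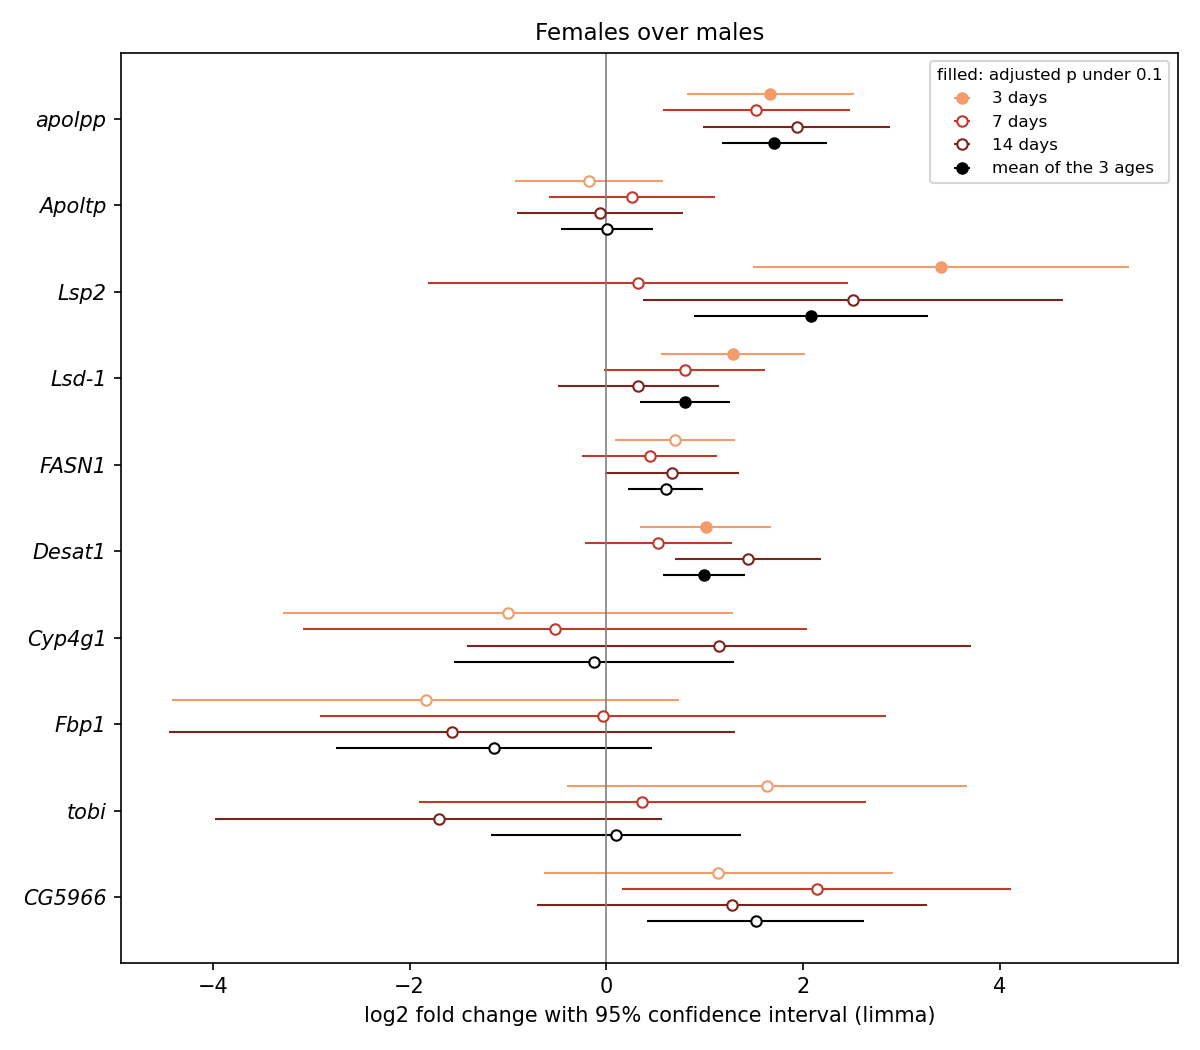
LFC of females over males for each gene (x axis) with its 95% confidence interval from limma, at 3, 7 and 14 days and as the mean over the ages, with filled points for an adjusted p below 0.1. Filled points belong to apolpp, Lsp2, Lsd-1 and Desat1, at 3 days (LFC 1.67, 3.41, 1.29 and 1.01) and over the ages (1.71, 2.08, 0.80 and 0.99).

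Counted over the 10 genes, 4 were higher in females and none lower in F3vM3. There 11.4% of all genes tested were called in either direction, 379 higher and 1038 lower. The median LFC was 1.08 over the 10 genes and −0.12 over all genes tested. Without F3 replicate 1 or M3 replicate 1, 1 of the 10 was called. Over the ages the same 4 genes were called, all higher, against 2.40% of all genes (223 higher and 76 lower). The median LFC over the ages was 0.70 over the 10 genes, beside −0.08 over all genes. Over the ages 2 genes, apolpp and Desat1, were called without F7 replicate 1, F14 replicate 2, any 1 of the M3 libraries, or replicate 2 or 3 of M7 or of M14. Leaving out F7 replicate 2 together with M14 replicate 1, 5 genes were called in F3vM3 and 6 over the ages. These comparisons share their 3-day libraries and are not independent. The 10 genes were chosen with earlier results of these data known, so their counts beside the shares of all genes are a description only. The gut enzyme markers moved with F3vM3 as well, with 6 of 6 higher in females, at 6785 to 18567 normalized reads summed in F3 and 148 to 279 in M3, and their part in the result was not tested.

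In F7vM7 limma called 0 of the 10 genes, and 0.0562% of all genes. At an unadjusted p below 0.05 there were 2, apolpp and CG5966, against 7.54% of all genes. These 2 were called by DESeq2, whereas edgeR called 0. In F14vM14 limma again called 0 of 10, and 0.329% of all genes. There 3 genes (apolpp, Lsp2 and Desat1) were at an unadjusted p below 0.05, against 7.13% of all genes. In edgeR 1 was called (apolpp), and in DESeq2 2 (apolpp and Desat1). Every female library was above every male library for 5 of the 10 genes at 3 days, 2 at 7 days and 5 at 14 days. The share of all genes was 10.7% at 3 days, 12.7% at 7 days and 9.52% at 14 days. Every female library was below every male library at 14 days for 2 of the 10, Fbp1 and tobi, and for 16.9% of all genes.

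Apoltp and Lsp2 were called higher at 14 than at 3 days in both sexes, and no gene of the 10 was called lower. In F14v3, Apoltp rose 2.19-fold (95% CI 1.22 to 3.92, LFC 1.13, SE 0.40, adjusted p = 0.069) and Lsp2 8.48-fold (95% CI 1.93 to 37.3, LFC 3.08, SE 1.02, adjusted p = 0.053). Both 14-day female libraries of Apoltp, at 655.8 and 578.0 normalized reads, were above the 3-day ones, at 157.8 to 380.1. For Lsp2, the 14-day value of 892.6 in replicate 3 lay below the 3-day value of 1710.0 in replicate 2, so these groups overlapped. In M14v3, Apoltp rose 2.03-fold (95% CI 1.20 to 3.42, LFC 1.02, SE 0.36, adjusted p = 0.099) and Lsp2 15.8-fold (95% CI 4.20 to 59.5, LFC 3.98, SE 0.91, adjusted p = 0.069). All 14-day male libraries of Lsp2 (140.7 to 645.6) exceeded all 3-day ones (10.7 to 34.9), while those of Apoltp overlapped.

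The calls with age rested on few libraries. Apoltp in F14v3 was lost without F3 replicate 2 (LFC 0.72, adjusted p = 0.24), F14 replicate 2 (adjusted p = 0.21) or F14 replicate 3 (adjusted p = 0.28). Lsp2 in F14v3 was lost without replicate 1 (LFC 2.03, adjusted p = 0.21) or 3 (adjusted p = 0.11) of the 3-day females, without replicate 2 (LFC 1.89, adjusted p = 0.34) or 3 (LFC 4.28, adjusted p = 0.15) of the 14-day females, and in edgeR (adjusted p = 0.16) and DESeq2 (adjusted p = 0.19). Without F3 replicate 2 it was kept, with an LFC of 4.50 (adjusted p = 0.0054). In both genes, leaving out an F14 library sets a single one against 3. Lsp2 in M14v3 was lost without replicate 2 (adjusted p = 0.26) or 3 (adjusted p = 0.15) of the 3-day males, without replicate 1 (adjusted p = 0.32) or 2 (adjusted p = 0.11) of the 14-day males, and in edgeR (adjusted p = 0.11), and without M14 replicate 3 it was kept with an LFC of 4.65 (adjusted p = 0.018). Apoltp in M14v3 was kept in 7 of 16 fits with a library left out, those without replicate 2 or 3 of the 3-day females, either 7-day female library, M3 replicate 1, M7 replicate 1 or M14 replicate 3, and elsewhere had an LFC of 0.67 to 1.03 and adjusted p of 0.10 to 0.50. It was kept in 3 of the 12 other alternatives, and in edgeR its adjusted p was 0.13.

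Counted over the 10 genes, 2 were called in F14v3, against 21.7% of all genes (2126 higher and 574 lower). In M14v3 2 were called, against 11.5% (758 higher and 676 lower). Without either of the 14-day female libraries, none was called in F14v3. In M14v3 none was called without replicate 2 or 3 of the 3-day males, without replicate 1 or 2 of the 14-day males, or with F7 replicate 2 and M14 replicate 1 both left out (Apoltp LFC 0.67, adjusted p = 0.43, and Lsp2 LFC 3.56, adjusted p = 0.27). The median over all genes was itself above 0, at an LFC of 0.15 in F14v3 and 0.24 in M14v3, and 0.37 and 0.49 after rescaling on abundant genes. Relative to the median of all genes, the LFC of Apoltp was 0.98 in F14v3 and 0.78 in M14v3, and that of Lsp2 was 2.93 and 3.74. Summed neuronal markers were 34360 to 69342 normalized reads in F14 against 89494 to 120246 in F3, and 16494 to 48474 in M14 against 70950 to 76844 in M3. The median over chemoreceptor genes was 16.1 to 17.5 in F14 against 1.12 to 3.51 in F3, and 15.9 to 56.9 in M14 against 7.39 to 13.3 in M3. Of the 8 fat body markers outside the 10 genes, 5 were called higher (Obp99a, Yp1, Yp2, Yp3 and fit) and 1 lower (to) in F14v3, at a sum of 108659 to 147222 normalized reads in F14 against 15826 to 49280 in F3. In M14v3 1 was higher (Obp99b) and none lower, at 379 to 1028 in M14 against 503 to 609 in M3. Of the 8 glial markers, 5 were lower in F14v3, at a sum of 3926 to 5167 in F14 against 8496 to 25228 in F3, and 4 were lower in M14v3, at 4010 to 4221 in M14 against 8543 to 9642 in M3. All 6 retinal and all 6 gut markers were lower in F14v3, whereas in M14v3 2 retinal markers were lower and 1 gut marker higher. Of 6 muscle markers, 3 were lower in F14v3 and 4 in M14v3, and none was higher. Of 5 hemocyte markers tested, 2 were higher and none lower in F14v3, and 3 were higher and 1 lower in M14v3. The part of any of these values in the changes with age was not tested.

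**Figure D4:**
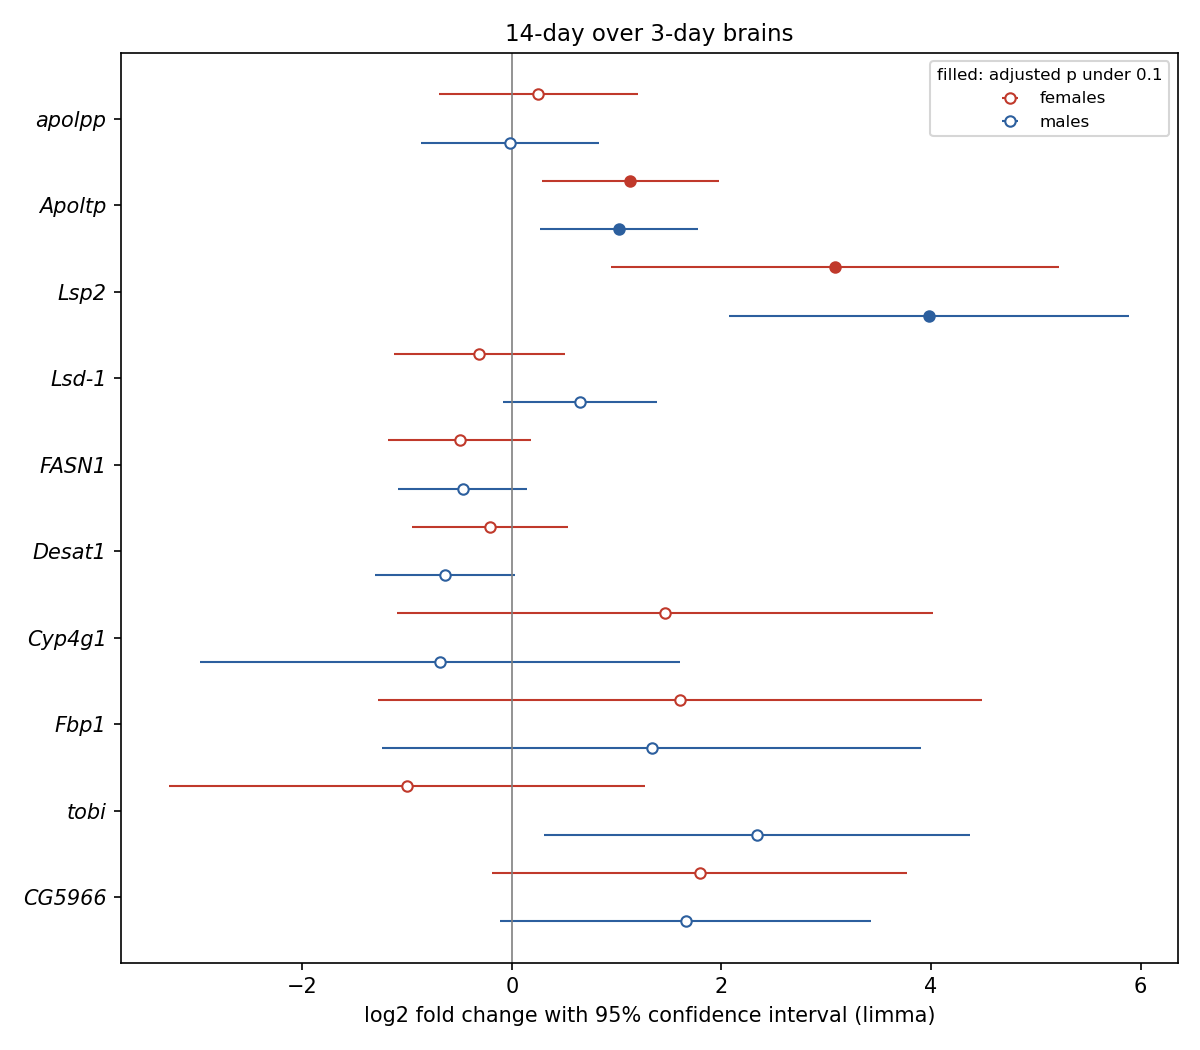
LFC of 14-day over 3-day brains for each gene (x axis) with its 95% confidence interval from limma, in females (red) and males (blue), with filled points for an adjusted p below 0.1. Filled points belong to Apoltp (LFC 1.13 in females, 1.02 in males) and Lsp2 (3.08 and 3.98).

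The genes that differed most firmly between the sexes did not pass with age. The LFC of apolpp was 0.25 in F14v3 (95% CI −0.70 to 1.20, adjusted p = 0.74) and −0.02 in M14v3 (95% CI −0.87 to 0.83, adjusted p = 0.98). That of Desat1 was −0.21 in F14v3 (adjusted p = 0.73) and −0.64 in M14v3 (95% CI −1.30 to 0.03, adjusted p = 0.18). In M14v3 all 14-day libraries were below all 3-day ones for 2 of the 10 genes, FASN1 and Desat1, and for 13.0% of all genes. They were above for 3 (Lsp2, Lsd-1 and CG5966) and for 20.3% of all genes. In F14v3 they were above for 2 (Apoltp and CG5966) and for 32.2% of all genes.

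Steps between neighbouring ages gave no call among the 10 genes in limma. The share of all genes at an unadjusted p below 0.05 was 19.7% in F7v3, 2.21% in F14v7 and 3.00% in M7v3. F7v3 had 0 of 10 (7.67% of all genes), also at an unadjusted p below 0.05 and in edgeR and DESeq2, but without F7 replicate 1 Desat1 (LFC −1.24, adjusted p = 0.054) and apolpp (LFC −1.18, adjusted p = 0.096) were called lower, with replicate 2, the lower of its group for both genes, standing alone. F14v7 had 0 of 10, and 0% of all genes, with Lsp2 at an unadjusted p below 0.05 (LFC 3.52) and 0 in edgeR and DESeq2. M7v3 had 0 of 10 (0.193% of all genes), with Lsp2 at an unadjusted p below 0.05 (LFC 2.65) and 0 in the other tools. M14v7 had 0 of 10 where 21.2% of all genes were called. There 3 genes were at an unadjusted p below 0.05 in limma (Apoltp, Fbp1 and CG5966), as were 34.8% of all genes. In edgeR 0 were called, and DESeq2 called CG5966 (LFC 2.20, adjusted p = 0.059) and Apoltp (LFC 0.90, adjusted p = 0.078). Without M14 replicate 3 limma called all 3 of these (CG5966 LFC 2.37, Apoltp 1.14 and Fbp1 3.31).

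Whether the change with age differed between the sexes was tested as an interaction, females minus males. The share of all genes at an unadjusted p below 0.05 was 15.2% for 3 to 7 days. It was 7.67% for 7 to 14 days and 5.33% for 3 to 14 days. For 3 to 7 days limma called 0 of the 10 genes, and 0.546% of all genes. Lsp2 was at an unadjusted p below 0.05 (difference of LFC −3.09, 95% CI −5.95 to −0.22, adjusted p = 0.29), and DESeq2 called it (adjusted p = 0.099) while edgeR called 0. For 7 to 14 days 0 of 10 were called, and 0% of all genes, with 0 at an unadjusted p below 0.05 and 0 in edgeR and DESeq2. For 3 to 14 days 0 of 10 were called, and again 0% of all genes, with tobi alone at an unadjusted p below 0.05 (difference of LFC −3.34, 95% CI −6.39 to −0.29, adjusted p = 0.87) and 0 in edgeR and DESeq2.

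Other genes of the same pathways were read from 6 lists, which were also chosen with earlier results of these data known. Among 10 lipid carriers and receptors, none was called over the ages between the sexes (median LFC −0.08), where 2.40% of all genes were. At an unadjusted p below 0.05 in limma there were 3 of the 10, against 18.0% of all genes. In F14v3 and in M14v3 1 of the 10 was higher, Karl in both, and 1 lower, against 21.7% and 11.5% of all genes called in either direction. Npc2b, a sterol-binding protein, fell in females (F14v3 LFC −1.19, adjusted p = 0.027) with means of 109.5 normalized reads at 14 days and 262.2 at 3 days, and its relative Npc2a fell in males (M14v3 LFC −1.09, adjusted p = 0.063). In M14v7 1 was higher (LRP1) and 2 were lower, Npc2a and the lipocalin NLaz (LFC −1.32, adjusted p = 0.076), where 21.2% of all genes were called.

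Of 21 genes of lipid droplets, triglyceride synthesis and lipases, 2 were higher in females over the ages, Lsd-2 and Jabba, and none was lower (median LFC 0.04), against 2.40% of all genes called. Lsd-2, the second perilipin of the fly, averaged 1296, 1040 and 1102 normalized reads in 3-, 7- and 14-day females and 442.3, 446.0 and 653.1 in males of these ages (LFC 1.14 over the ages, adjusted p = 0.0015). In F3vM3, 2 of the 21 were higher and 1 lower, beside 11.4% of all genes. The lipase Lip1 was lower in 3-day females (F3vM3 LFC −3.10, adjusted p = 0.032) and CG6295, another lipase-like gene, higher (LFC 5.13, adjusted p = 0.026), as was Lsd-2. In F14v3, 3 of the 21 rose, Lip1 (LFC 3.77), Lip3 and Jabba, and 2 fell, CG6295 (LFC −5.43) and CG6283, beside 21.7% of all genes. In M14v3, 1 rose (mdy) and 2 fell (Gpat4 and Agpat3), beside 11.5% of all genes. In M14v7, 4 rose and 2 fell, beside 21.2% of all genes. The female mean of CG6295 was 1186 normalized reads at 3 days and 42.1 at 14 days. The gut enzyme markers, summed, were also high in F3 (6785 to 18567) and lower in F14 (190 to 590) and M3 (148 to 279). Their part in the values of CG6295 was not tested.

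Of 13 genes of fatty acid synthesis other than FASN1 and Desat1, the median LFC over the ages was 0.28. At an unadjusted p below 0.05 in limma there were 7, against 18.0% of all genes. In the same comparison 2 of the 13 were called higher in females and none lower, against 2.40% of all genes called. They were Acsl, which activates long-chain fatty acids with coenzyme A (LFC 0.72, adjusted p = 0.032), and Men, the malic enzyme that supplies NADPH (LFC 0.70, adjusted p = 0.050). Men averaged 1820, 1652 and 1306 normalized reads in females and 1022, 1170 and 703.3 in males at 3, 7 and 14 days. FASN3, a fatty acid synthase of oenocytes, was the 1 gene of the 13 called in F14v3 and rose, to a mean of 167.3 normalized reads at 14 days against 50.2 at 3 days (adjusted p = 0.057). In M14v3, 1 of the 13 fell, SREBP, and none rose, where 11.5% of all genes were called. In M14v7, 4 of the 13 fell, SREBP and Men among them, and 1 rose, where 21.2% of all genes were called.

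Of 16 enzymes of hydrocarbons and chain length, none was called between the sexes over the ages (median LFC 0.02), where 2.40% of all genes were. At an unadjusted p below 0.05 in limma there were 2 of the 16, against 18.0% of all genes. In F3vM3, where 11.4% of all genes were called, 2 of the 16 were lower, bond and Elo68beta, and none higher. Elo68beta, an elongase (F3vM3 LFC −2.98, adjusted p = 0.036), had a mean of 4.73 normalized reads in females against 32.8 in males. In F14v3, 2 rose (eloF and Elo68beta) and none fell, against 21.7% of all genes. In M14v3 3 rose (Desat2, eloF and sit) and 3 fell (Sc2, Hacd1 and Hacd2), against 11.5%. In M14v7 3 rose and 4 fell, against 21.2%. Sc2 and Hacd1, enzymes of the fatty acid elongation cycle, had LFCs of −0.95 (adjusted p = 0.076) and −1.06 (adjusted p = 0.079) in M14v3.

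Of 9 storage proteins, 4 were higher in females over the ages (Lsp1beta, Yp1, Yp2 and Yp3), none lower, with a median LFC of 0.30, against 2.40% of all genes called. The yolk protein Yp1 averaged 16862, 27488 and 58521 normalized reads in 3-, 7- and 14-day females and 31.6, 34.4 and 73.2 in males. The same comparison gave an LFC of 8.61 for Yp3 and 8.73 for Yp2. Within each age the 3 yolk proteins were called higher too, and no storage protein lower. Of all genes, 11.4% were called at 3 days, 0.0562% at 7 days and 0.329% at 14 days. In F14v3, 6 of the 9 rose (the 3 hexamerins of the Lsp1 group and the 3 yolk proteins) and none fell, with a median LFC of 2.07 beside 0.15 over all genes, of which 21.7% were called. In M14v3, Lsp1beta and Lsp1gamma rose and the ferritin genes Fer1HCH and Fer2LCH fell, against 11.5% of all genes called. The same genes were called in the same directions in M14v7, where 21.2% of all genes were called.

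Of 19 genes of insulin and adipokinetic hormone, 2 were higher in females over the ages and none lower, with a median LFC of 0.10, against 2.40% of all genes called. They were daw, a TGF-beta family ligand that answers to insulin signalling and sugar (LFC 1.80, adjusted p = 0.00079), and Thor, the translation inhibitor 4E-BP (LFC 1.36, adjusted p = 0.0015). Mean levels of daw were 155, 165.5 and 103.6 normalized reads in females and 41.0, 45.1 and 28.9 in males at 3, 7 and 14 days. In F3vM3, 3 of the 19 were higher, daw and Thor among them, and none lower, beside 11.4% of all genes. In F14vM14 1 was higher (Thor) and none lower, beside 0.329% of all genes. In F14v3, 3 of the 19 rose (Ilp7, Ilp8 and upd2) and 2 fell, ImpL2 and Akh, the adipokinetic hormone that mobilises fat (LFC −1.98, adjusted p = 0.027), beside 21.7% of all genes. In M14v3, 3 rose (Ilp6, Ilp8 and AkhR) and none fell, beside 11.5% of all genes. In M14v7, 2 rose and 3 fell, Thor among these, beside 21.2% of all genes.

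The genes most like each of the 10 were ranked by Pearson r of log2(normalized reads + 1) over the 16 libraries, among 8411 genes with a mean of at least 50. The libraries share sex, age and levels of scarce genes, and r is given as a description. For apolpp they were CG1468 (r 0.97), CG10680 (r 0.96) and CG14629 (r 0.94). For Lsd-1 they were BomS3 (r 0.96) and Dso1 (r 0.94), immune-induced peptides, and CG18135 (r 0.93). Desat1 had Acsl (r 0.93), whd (r 0.92), which encodes the carnitine palmitoyltransferase of fatty acid import into mitochondria, and Men (r 0.92).

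Likeness was lower or lay with other genes for the rest. FASN1 had CG14186 (r 0.88), cbt (r 0.88) and Mnr (r 0.87), and Apoltp had GrlHz (r 0.93), yem (r 0.92) and snama (r 0.92). Lsp2 had Had1, Sodh1 and CG8665 (r 0.88, 0.88 and 0.87), and CG5966 had Cyp6w1, Gart and Cyp4d20 (r 0.86, 0.86 and 0.83). For Fbp1 the leading genes were CG31262, Cyp4p2 and ZnT41F (r 0.93, 0.92 and 0.91), for tobi CG44250, CG15422 and CG5521 (r 0.90, 0.82 and 0.82), and for Cyp4g1 GATAe, Gasp and Gnmt (r 0.75, 0.71 and 0.69).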

How the data were processed

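Per the labels, the authors used Trimmomatic (0.39) for trimming, STAR (2.7.3a) for mapping and DESeq2 (2.10, with R 2.14.1) for normalization. The deposited signal values are these normalized reads. Every value was a whole read number divided by 1 factor per library (tolerance 1e-06), and reads were recovered. The program that counted reads per gene is not given in the sources used here. Genes were placed on release 6 by annotation ID (NCBI gene table), with exons from BDGP6.54. Normalized values were compared with limma 3.58.1 (R 4.3.3, pseudocount 1, variance trend, mean of at least 5) in a single model of 6 groups with 13 comparisons, in place of a count model, since the values are not counts. The fit was run on simulated data with the same spread for every gene and no deviating libraries. Only genes with a mean of at least 50 were changed there. That run does not test the fit for scarce or unevenly spread genes. Samples were grouped by the sex and age in their labels.

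All 10 genes are named. From each of 6 lists up to 3 genes with the smallest adjusted p past 0.1 and a mean of at least 50 are named, and genes outside this rule (Jabba, Lsp1beta, Lsp1gamma, Fer1HCH, Fer2LCH, Karl, LRP1, Lip3, CG6283, mdy, Gpat4, Agpat3, SREBP, bond, eloF, Desat2, sit, Hacd2, Ilp6, Ilp7, Ilp8, upd2, ImpL2, AkhR) were added after their values were seen. Of the listed names magro, Mlycd and james were not matched and sea was not tested. The members and lists were chosen with earlier results of these data known.

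Alternatives were other tools on the recovered reads (edgeR 4.0.16 and DESeq2 1.42.0), other pseudocounts (0.5 or 5), other filters (none, or a minimum mean of 20), other scalings (quantile, or the median ratio of genes whose mean reached 100), a replicate block, a fit of the compared groups alone, a threshold of 0.05, and leaving out each library, or both F7 replicate 2 and M14 replicate 1. Tables were handled in Python 3.11.15 (pandas 2.3.3) and figures drawn with matplotlib 3.10.9.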

Additional observations from a re-analysis of the deposited data

How the results depend on the processing

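None of the 12 fold changes called among the 10 genes in limma with all libraries changed direction under an alternative run, and apolpp and Desat1 over the ages kept their calls throughout. Quantile normalization gave 2 called genes in F3vM3 in place of 4, 2 in F14vM14 in place of 0, and 1 each in F14v3 and M14v3 in place of 2. With DESeq2 there were 5 in F3vM3 and 6 over the ages, each in place of 4. It also gave 2 in F7vM7, 2 in F14vM14, 2 in M14v7, 1 in F14v3 and 1 in the interaction for 3 to 7 days. With edgeR there were 3 in F3vM3, 5 over the ages, 1 in F14vM14, 1 in F14v3 and 0 in M14v3. Leaving out F7 replicate 2 and M14 replicate 1, each the highest of its group for scarce genes, gave 3 in F7vM7, 2 in F14vM14 and 0 in M14v3. A threshold of 0.05 gave 2 over the ages, 0 in F14v3 and 0 in M14v3, and Desat1 was lost in F3vM3. Over the ages, rescaling on abundant genes called FASN1 and lost Lsp2 and Lsd-1. Fitting the groups compared alone gave 1 each in F14v3, M7v3 and M14v3. In M14v7, a pseudocount of 5 gave 1 and rescaling on abundant genes 2, and in M14v3 a pseudocount of 0.5, no filter and a mean of at least 20 gave 1 each. With a library left out, the counts ranged from 1 to 5 in F3vM3, 0 to 1 in F7vM7, 0 to 2 in F14vM14, 2 to 6 over the ages, 0 to 2 in F7v3, 0 to 2 in F14v3, 0 to 3 in M14v7 and 0 to 3 in M14v3. The deviations of same-numbered libraries from their group means had a median correlation of −0.05 over 35 pairs, 7 of them over 0.1. Over 71 other pairs the median was 0.01, with 26 over 0.1. With 2 or 3 libraries per group these values cannot settle whether the numbers pair libraries. With the replicate block, 1 gene was called in F14vM14, 1 in M14v3 and 3 over the ages. Groups of 2 or 3 libraries and low reads limit Fbp1, CG5966 and tobi most.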
